A study of Mus musculus with 2 samples.

Results

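Sox10, Foxd3, Erbb3, Cdh19, S100b and Fabp7 are 6 genes that mark Schwann cells and other glia of the peripheral nervous system. They were followed here in ureters of mouse embryos at stage E18.5. Their probes were found by gene name among the gene spots of both deposited arrays. Each gene had 1 probe on 1 spot, so that 6 of 43020 gene spots, or 6 of 31870 gene names, were followed. Total RNA of dissected ureters of NMRI mice was measured on 2 two-colour arrays, each of which held both genotypes. Embryos of the group called cDKO carried a Cre allele of Tbx18 on 1 chromosome and floxed Tbx2 and Tbx3 on both chromosomes. Control embryos had no Cre allele, with 2 wild-type copies of Tbx18, and at least 1 floxed allele of Tbx2 and of Tbx3, the other allele being left unstated. Controls therefore differ from cDKO embryos both in the floxed alleles and in lacking the Cre allele, which sits in a gene of the ureteric mesenchyme. The male array held cDKO RNA in red and control RNA in green, and the female array had the dyes exchanged, so sex, dye orientation and replicate number cannot be told apart. The number of embryos behind an RNA is not stated. The p-values rest only on differences between these 2 arrays, mostly through a variance pooled over probes. The RNAs of the male array are called the male pair, and those of the female array the female pair.

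Peripheral glia come from the neural crest, whose cells travel along growing nerves into organs as Schwann cell precursors and mature into myelinating or non-myelinating Schwann cells. The transcription factor Sox10 is needed for this lineage at every step, and survival of the precursors depends on neuregulin from the axon, which is read by the receptor pair Erbb2 and Erbb3. The ureter receives autonomic and sensory nerve fibres, and glia reach it with these fibres. In whole tissue, fewer cells of a type and less RNA per cell cannot be told apart.

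Each transcript was read by a single probe of 60 bases. The last 30 bases of each probe are shown, since every value below rests on this 1 oligonucleotide per gene. Letters are in lower case, and capitals mark AATAAA, the hexamer of the polyadenylation signal.
Sox10: tccagcgataccttAATAAAgtacgtagct
Foxd3: gtataaagacgttgggagattttaaatcca
Erbb3: ttccctaaggctaacgcccagagaatttga
Cdh19: agaattctgggtggtttcataaaggaacac
S100b: tattcaaatagcgacgttttaaataatcca
Fabp7: cttcggtgtggaggtagaaaattataattc
The hexamer was found in this stretch of the Sox10 probe and in that of 10.6% of all 39429 probes, searched on the probe's own strand. On mm9, the build of the files, the probes lie at chr15:78985518-78985577 on the minus strand for Sox10, chr4:99325170-99325229 on the plus strand for Foxd3 and chr10:128006424-128006483 on the minus strand for Erbb3. The probe of Cdh19 lies at chr1:112785846-112785905 on the minus strand, that of S100b at chr10:75723783-75723842 on the plus strand and that of Fabp7 at chr10:57508039-57508098 on the plus strand. Thus 3 of the 6 genes are on chromosome 10. The files do not say which exon or UTR a probe reads. The accession of each probe led to the same gene in RefSeq, and 0 probes of other genes had the same sequence.

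The ureter RNAs held these transcripts in measurable amounts. All 6 probes were well above background in all 4 RNAs, 0 of their spots were saturated or marked as outliers, and so all 6 passed the filter on dim probes. Of all gene spots, 72.1% to 81.6% were well above background per RNA. The epithelial markers of the ureter, such as uroplakins and keratins, were well above background in all 4 RNAs for 8 of 8 genes. The floxed genes were higher in cDKO RNA, with log2 ratios of cDKO over control in the male and female pairs of 1.03 and 0.44 for Tbx2 and of 0.78 and 0.55 for Tbx3 (limma adjusted p = 0.0273 and 0.0305). Tbx18, which carries Cre on 1 allele in cDKO embryos, was also higher, at 0.81 in both pairs (limma adjusted p = 0.00778). Which exons are floxed is not stated, so these probes check no genotype, and cDKO stands for RNA labelled cDKO throughout. The female cDKO RNA stands apart from its label: the Y-linked gene Ddx3y had a signal of 359.6 there, 12.6% of the 2851 in male cDKO RNA, while it was not well above background in female control RNA. Values are therefore given for each array, and the male ratio is the value without that RNA.

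Among the glial markers Fabp7 was higher in cDKO RNA and the other 5 did not pass the test. Of the 6 genes, 1 was called higher and 0 were called lower (limma, adjusted p under 0.05), while 2 had an unadjusted p under 0.05. Over all genes tested, 4.45% were called in either direction, 2.18% higher and 2.27% lower, and 16% had an unadjusted p under 0.05. The median log2 ratio of the 6 genes was 0.52 in the male pair and 0.083 in the female pair, against medians of 0.0038 and 0.018 over all 23419 genes. Ratios were above 0 for 5 of 6 genes in the male pair and for 4 of 6 in the female pair. The ratio was larger in the male pair for 5 of the 6 genes. The male ratio was above 0.5 for Sox10, Foxd3 and Fabp7, which is 3 of 6 against 9.62% of all genes. None of the 6 reached 2-fold on both arrays, as 1.14% of all genes did.

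**Figure D1:**
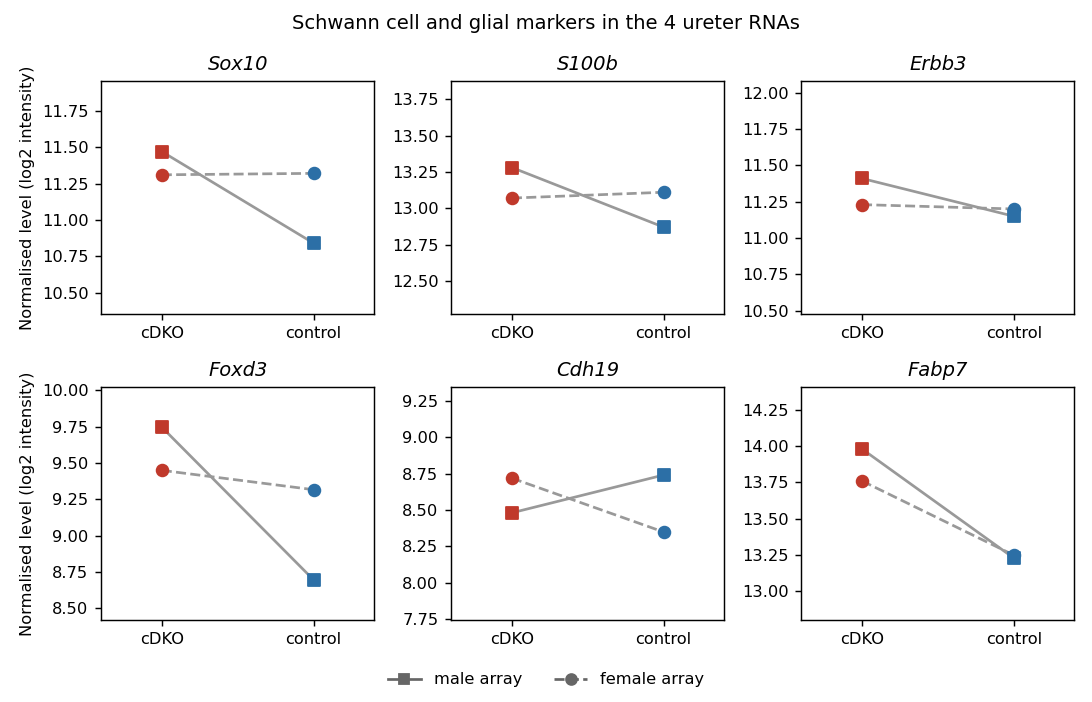
Normalised level (log2 intensity after loess and Aquantile) of each glial marker in cDKO and control RNA, with squares for the male array and circles for the female array, lines joining RNAs of 1 array, and the same span on every vertical axis. Fabp7 is higher in both cDKO RNAs than in both control RNAs, while for Sox10 the male control RNA, at 10.84, stands below the other 3, which lie between 11.31 and 11.47.

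Sox10, the transcription factor that defines the glial lineage of the neural crest, had a higher signal in cDKO RNA in the male pair and a nearly equal one in the female pair, and was not called. Its processed signal was 1025 in male cDKO RNA and 683.7 in female cDKO RNA, against 632.1 in male control RNA and 675.5 in female control RNA. The male cDKO RNA was the highest and the male control RNA the lowest, while both female RNAs lay close together between them, so the groups overlapped. On the normalised log2 scale its level was 11.47 and 11.31 in male and female cDKO RNA, against 10.84 and 11.32 in male and female control RNA. Its log2 ratio was 0.63 in the male pair and -0.0090 in the female pair, a mean of 0.31 ± 0.45 (SD, n = 2; limma adjusted p = 0.461). The 95% interval of the mean, which rests mostly on a variance pooled over probes, ran from -0.077 to 0.70. Its lower bound corresponds to 0.948 of the control level.

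Foxd3, a forkhead factor of early neural crest and glial precursors, had the largest male ratio and the widest gap between the arrays. Its processed signal was 275.4 in male and 173.8 in female cDKO RNA, against 105.1 in male and 157.6 in female control RNA. Both cDKO signals lay above both control signals, and the male control RNA was the lowest of the 4. The log2 ratio was 1.05 in the male pair and 0.13 in the female pair, with a mean of 0.59 ± 0.65 (SD, n = 2; limma adjusted p = 0.137). The mean corresponds to 1.51-fold, with an interval from 1.12-fold to 2.03-fold, and it did not pass the test after adjustment. The male and female ratios were 1.14 and 0.15 with offset 0, and 1.39 and 0.14 with the processed signals.

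Erbb3, the neuregulin receptor of Schwann cells and their precursors, had ratios above 0 on both arrays, only just so on the female array, and was not called. Its processed signal was 928.5 in male and 657.1 in female cDKO RNA, against 812.3 in male and 625.5 in female control RNA. The cDKO signal was above the control signal of the same array for both pairs, but the male control signal exceeded the female cDKO signal. Its log2 ratio was 0.26 in the male pair and 0.034 in the female pair, a mean of 0.15 ± 0.16 (SD, n = 2; limma adjusted p = 0.776), with an interval from -0.20 to 0.50. The level of Erbb3 differed by 0.048 log2 units between female and male control RNA, against 0.48 for Sox10 and 0.62 for Foxd3.

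Cdh19, a cadherin of the Schwann cell lineage, went opposite ways on the arrays. Its processed signal was 78.51 in male and 75.76 in female cDKO RNA, against 110.1 in male and 54.89 in female control RNA. The control RNAs were thus the highest and the lowest of the 4, with both cDKO RNAs between them. The log2 ratio was -0.26 in the male pair and 0.37 in the female pair, with a mean of 0.055 ± 0.45 (SD, n = 2; limma adjusted p = 0.946) and an interval from -0.33 to 0.44. With the processed signals the mean was -0.012, so the sign of the mean depends on the processing.

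S100b, a calcium-binding protein that Schwann cells make as they mature, had its higher cDKO signal in the male pair and was not called. Its processed signal was 3395 in male and 2258 in female cDKO RNA, against 2577 in male and 2289 in female control RNA. In these signals the groups overlapped, with the female cDKO RNA the lowest of the 4. On the normalised log2 scale the groups overlapped too, but the male control RNA was the lowest. Levels there were 13.28 and 13.07 in male and female cDKO RNA, against 12.87 and 13.11 in male and female control RNA. The log2 ratio was 0.42 in the male pair and -0.034 in the female pair, a mean of 0.19 ± 0.32 (SD, n = 2; limma adjusted p = 0.691), with an interval from -0.18 to 0.56. Cartilage cells and fat cells make S100b too. Cartilage genes had a median log2 ratio of 0.18 in the male pair and 0.32 in the female pair over 5 of 6 genes that passed the filter, and the cartilage collagens Col2a1, at 1.87 and 0.71, and Col9a1, at 1.44 and 0.65, were called higher (limma, adjusted p = 0.00222 and 0.00388), while Matn1 was at 0.12 and 0.19. A second probe of Col9a1 had a mean of 0.053, and as the mean of its probes the gene was at 0.55 and not called (adjusted p = 0.0721). Col2a1 was not called with robust eBayes (adjusted p = 0.101), and neither gene was called from the processed signals or in the deposited value table. Acan, at 0.18 and -0.058, and Hapln1, at -0.55 and 0.32, had opposite signs in the male and female pairs. The summed signal of the 5 was 12310 and 7837 in male and female cDKO RNA, against 4966 and 5140 in male and female control RNA. Most of it came from Col9a1, with 10580 and 6846 in male and female cDKO RNA and 3842 and 4430 in male and female control RNA. The part of cartilage genes in the S100b values was not tested. Of 6 fat cell genes 2 passed the filter, Pparg and Fabp4, with mean log2 ratios of -0.20 and -0.34, neither with an unadjusted p under 0.05, and the fat cell genes Adipoq, Cidec, Lep and Plin1 missed the filter.

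Fabp7, the brain-type fatty acid binding protein of glial precursors, was the marker that rose. Its processed signal was 6676 in male and 4581 in female cDKO RNA, against 4128 in male and 3322 in female control RNA. Both cDKO signals lay above both control signals, and the ratio had the same direction on both arrays. On the normalised log2 scale its level was 13.98 and 13.76 in male and female cDKO RNA, against 13.23 and 13.25 in male and female control RNA. The log2 ratio was 0.75 in the male pair and 0.51 in the female pair, a mean of 0.63 ± 0.17 (SD, n = 2; limma adjusted p = 0.0432), which is 1.55-fold with an interval from 1.21-fold to 1.97-fold. The adjusted p was close to the threshold, and the call was lost under 5 of 10 other settings: with the processed signals (adjusted p = 0.314), in the deposited value table (0.438), under median centring (0.448), with a background offset of 0 (0.0776) and without a filter (0.0615). The direction stayed in all 10, but several of these settings left the ratios of Fabp7 as they were. Its ratios changed only with offset 0, median centring, the processed signals and the deposited value table. The processed signals and the deposited value table gave the same ratios, 0.69 and 0.46 in the male and female pairs.

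**Figure D2:**
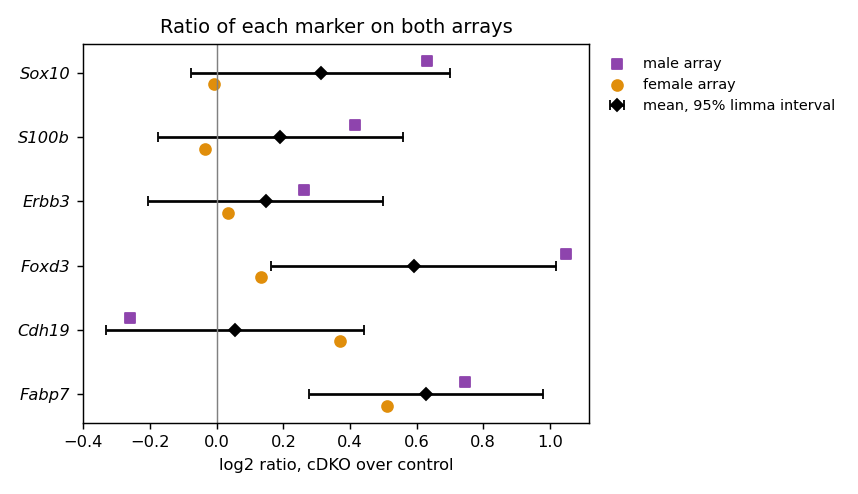
Log2 ratio of cDKO over control for each glial marker on the male array (squares) and the female array (circles), with the mean and its 95% limma interval (diamonds and bars). The intervals of Fabp7 and Foxd3 lie above 0, from 0.28 to 0.98 and from 0.16 to 1.02, and those of the other 4 genes include 0.

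The markers differed in how far the male and female pairs were apart. The male ratio exceeded the female ratio by 0.92 for Foxd3, 0.64 for Sox10, 0.45 for S100b, 0.23 for Fabp7 and 0.23 for Erbb3, and fell short of it by 0.63 for Cdh19. Over all genes the gap between the arrays, without its sign, had a median of 0.23 and an upper quartile of 0.40, so that Foxd3, Sox10, Cdh19 and S100b lay above that quartile and the other 2 near the median. Ratios were above 0 on both arrays for Fabp7, Foxd3 and Erbb3, which is 3 of 6 against 31.7% of all genes, and the signs were opposite for the other 3, against 40.3% of all genes. Normalised levels of both cDKO RNAs lay above those of both control RNAs for the same 3 genes, Fabp7, Foxd3 and Erbb3, against 26.9% of all genes, and levels without overlap in either direction were found for 49.5% of all genes. Since each array had its own sex and dye orientation, which of these the gaps follow cannot be told apart.

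The genes whose pair of ratios lay closest to that of Sox10 were Wnk4, Zfp459 and Acbd6, at Euclidean distances of 0.0043, 0.0097 and 0.012 log2 units over the 2 arrays. With 2 values per gene this likeness is weak, and 133 of 16166 named genes lay within 0.1 of Sox10.

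**Figure D3:**
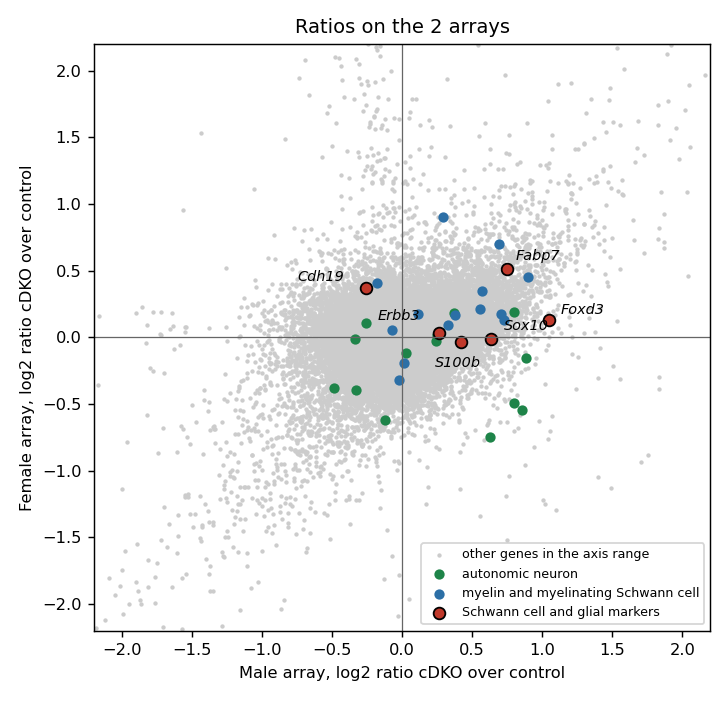
Log2 ratio of cDKO over control on the male array (horizontal) and the female array (vertical) for all genes in the plotted range (grey), the autonomic neuron list (green), the myelin list (blue; Pou3f1 lies outside the range) and the glial markers (red, named). Sox10 and S100b lie to the right on the horizontal line at 0, and Fabp7 lies at the upper right.

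Other genes of the early crest and Schwann cell lineage moved in both directions. Of 18 listed genes 17 passed the filter, 1 was called higher and 2 were called lower, with a median mean log2 ratio of -0.0083 (0.0045 over all genes). Tfap2b, an AP-2 factor of the neural crest that kidney cells also make, had signals of 128 and 86.76 in male and female cDKO RNA, against 35 and 40.11 in male and female control RNA, and rose by 0.84 ± 0.080 (SD, n = 2; limma adjusted p = 0.00619). Ednrb, the endothelin receptor B of migrating crest cells, which endothelium and muscle also make, had signals of 2901 and 2669 in male and female cDKO RNA, against 9114 and 4393 in male and female control RNA. It fell by 1.19 on the log2 scale (SD 0.73, n = 2; limma adjusted p = 0.0029), with -1.70 in the male and -0.68 in the female pair, and both of its probes were called. Itga4, an integrin subunit of crest cells and leukocytes, fell by 0.67 (SD 0.21, n = 2; limma adjusted p = 0.031). Median centring, the processed signals and the deposited value table each ended all 3 calls, the processed signals putting Tfap2b at 1.49, and for Itga4 offset 0 and no filter did so too.

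Other genes of this list did not pass the test. Sox8, a relative of Sox10, was at 0.43 ± 0.028 (SD, n = 2) and Ets1, a transcription factor of crest and vessels, at 0.20, and Ncam1, the bright neural adhesion molecule, was at -0.030. Ngfr, the neurotrophin receptor of immature Schwann cells, is named here after its values were seen, and was at 0.46 in the male and -0.17 in the female pair. The listed Sox2, a factor of immature Schwann cells, was not well above background in any of the 4 RNAs.

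Among myelin genes 3 rose and most ratios were above 0. Of 17 listed genes 15 passed the filter, 3 were called higher and 0 lower, and the median mean log2 ratio was 0.39, with medians of 0.38 in the male pair and 0.17 in the female pair. Ratios were above 0 on both arrays for 11 of the 15 genes, against 31.7% of all genes. The largest belonged to Pou3f1, the POU factor that promyelinating Schwann cells switch on and that other cell types also use. Its signal was 2233 in male and 1259 in female cDKO RNA, against 163.8 in male and 154.7 in female control RNA. It rose by 2.999 ± 0.23 (SD, n = 2; limma adjusted p = 2.36e-08), and was called in every other setting except the deposited value table.

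Drp2, a dystrophin-related protein of the myelinating Schwann cell membrane, rose by 0.70 ± 0.0049 (SD, n = 2; limma adjusted p = 0.0211). Pmp22, a myelin protein that many other tissues make, rose by 0.68 ± 0.31 (SD, n = 2; limma adjusted p = 0.036). Neither was called under median centring, from the processed signals or in the deposited value table, and Pmp22 was not called with offset 0, without a filter or as the mean of its 2 probes. Gjb1, a gap junction protein, was at 0.60 ± 0.43 (SD, n = 2) and Mal, a membrane protein of myelin and of epithelia, at -0.0059, neither called. Some further genes are named after their values were seen, none of them called. Egr2 and Prx, the factor and the structural protein of myelination, and Mbp, the myelin basic protein, were at 0.39, 0.43 and 0.21. The 3 probes of Mbp ran from -0.14 to 0.21, and as the mean of its probes the gene was at 0.090. The myelin gene Mag was at 0.014 in the male and -0.19 in the female pair. Cnp, at -0.026 and -0.32, was the 1 gene of the list below 0 on both arrays.

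The neuregulin pathway, which supplies the ligands and partners of Erbb3, held 1 gene that rose. Of 17 listed genes 15 passed the filter, 1 was called higher and 0 lower, and the median mean log2 ratio was 0.061. The called gene was Areg, a ligand of the epidermal growth factor receptor and not of Erbb3, which rose by 0.93 ± 0.60 (SD, n = 2; limma adjusted p = 0.0109), with 1.35 in the male and 0.50 in the female pair. Median centring, the processed signals and the deposited value table each ended that call. The neuregulin genes are named after their values were seen, and none was called. Nrg1 was at -0.041 in the male and -0.17 in the female pair, Nrg2 at 0.29 and -0.41, and Nrg4 at 0.065 and 0.016. Nrg3 missed the filter. Erbb2, the signalling partner of Erbb3, was at 0.43 ± 0.24 (SD, n = 2; limma adjusted p = 0.21). Erbb4, the other neuregulin receptor, was at 0.44, and Tgfa, a further ligand of the epidermal growth factor receptor, at 0.49, neither called, although Erbb4 was called with an intensity trend (adjusted p = 0.0341). Adam10, a protease that sheds such ligands, was at -0.53 in the male and 0.17 in the female pair, and Errfi1, an inhibitor of these receptors, had a mean of -0.071.

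Nerve cell markers had a median above 0 in the male pair and below 0 in the female pair. Of 15 autonomic neuron genes 14 passed the filter and 0 were called in either direction (limma, adjusted p under 0.05), while 4 had an unadjusted p under 0.05. Their median log2 ratio was 0.24 in the male pair and -0.13 in the female pair, and 9 of the 14 were positive in the male pair and 4 in the female pair. Genes of noradrenergic neurons are named after their values were seen: Phox2a at 0.88 and -0.15 in the male and female pairs, Hand2 at 0.86 and -0.54, Dbh at 0.80 and -0.49, and Th at 0.62 and -0.75. Other neuron genes were below 0 in both pairs, with Uchl1, an abundant enzyme of neurons, at -0.33 and -0.39, Stmn2 at -0.13 and -0.62, Snap25 at -0.34 and -0.013, and the neuron factor Isl1 at -0.49 and -0.38. The summed signal of the 14 genes was 21127 and 15417 in male and female cDKO RNA, against 23355 and 19592 in male and female control RNA. Most of it came from Uchl1, with 11400 and 8405 in male and female cDKO RNA and 13570 and 11160 in male and female control RNA. Snap25 gave 4381 and 3518 in male and female cDKO RNA, and 5417 and 3610 in male and female control RNA. The part of nerve content in the glial ratios was not tested.

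**Figure D4:**
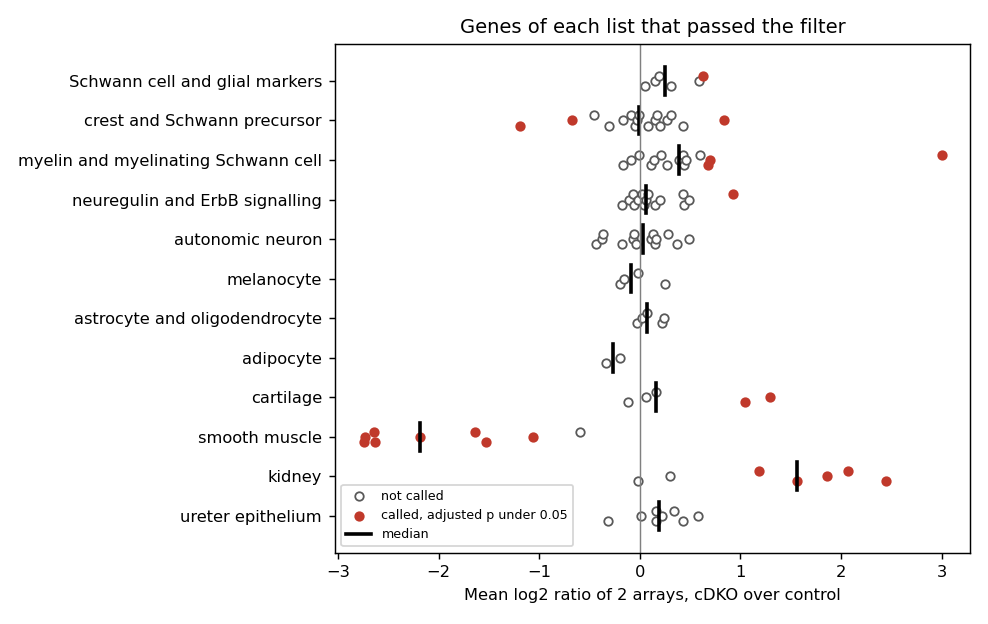
Mean log2 ratio of cDKO over control for each gene that passed the filter, by list, with called genes filled in red, genes not called open, and the median of each list as a black bar. The glial markers lie between 0.055 and 0.63, while smooth muscle genes lie far to the left, with a median of -2.19, and kidney genes to the right, with a median of 1.56.

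Other cell types that share these markers or could enter the dissection gave the following values. Melanocyte genes, which share Sox10 and its crest origin, passed the filter for 4 of 7 genes with 0 called, 0 at an unadjusted p under 0.05, and a median of -0.087, among them Pmel at 0.25, Mitf at -0.16 and Mlana at -0.20. The melanocyte genes Dct, Tyrp1 and Slc45a2 missed the filter, Dct being well above background in 1 of the 4 RNAs and the others in none. Astrocyte and oligodendrocyte genes passed for 5 of 7 genes with 0 called, 0 at an unadjusted p under 0.05, and a median of 0.070, with Aqp4 at 0.24 and Slc1a3 at 0.22, and the oligodendrocyte factors Olig1 and Olig2 missed the filter. Ureter epithelium genes had 0 of 8 called, 2 at an unadjusted p under 0.05, and a median of 0.19, with Krt5 at 0.58, Krt8 at 0.43, Krt18 at 0.34 and Trp63 at -0.32. Krt5 was called with the filter on both channels, an intensity trend or robust eBayes (adjusted p = 0.0425, 0.00703 and 0.0406).

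Larger shifts than those of the glial markers were seen in muscle and kidney lists of the same RNAs. Of 9 smooth muscle genes 8 were called lower and 0 higher, with a median of -2.19. The called genes were Tagln, Actg2, Acta2, Myh11, Cnn1, Des, Myocd and Lmod1, with mean log2 ratios from -2.75 to -1.06. Lmod1 was not called under median centring (adjusted p = 0.0795) or from the processed signals (-1.84, adjusted p = 0.0536), and 0 of the 8 were called by limma in the deposited value table. The summed signal of the 9 was 115690 and 70968 in male and female cDKO RNA, against 595300 and 360930 in male and female control RNA. Of 10 kidney genes 7 passed and 5 were called higher, with medians of 2.02 in the male and 1.09 in the female pair. The called genes were Cdh16, at a mean of 2.45, Lhx1 at 2.06, Six2 at 1.86, Pax8 at 1.56 and Slc34a1 at 1.18, genes of nephron progenitors and tubules. The other 2 that passed, Wt1 and Cdh6, are named after their values were seen and were not called. Wt1 was at 0.85 in the male and -0.26 in the female pair, and Cdh6 at 0.075 and -0.11. Lhx1 was well above background in 3 of the 4 RNAs and not in female control RNA, and its other probe, the one left with the filter on both channels, was at 0.70. The second probe of Slc34a1 was at 0.32 and not called. With robust eBayes Cdh16 and Slc34a1 were not called (adjusted p = 0.614 and 0.0602), nor from the processed signals were these and Pax8 (adjusted p = 0.139, 0.257 and 0.0674), and 0 of the 5 were called in the deposited value table. The summed signal of the 7 was 10168 and 5131 in male and female cDKO RNA, against 3339 and 3703 in male and female control RNA. Of these sums Wt1 gave 3583 and 1952 in male and female cDKO RNA, and 2005 and 2322 in male and female control RNA. The kidney list thus also had its larger ratio in the male pair, and its part in the glial ratios was not tested. The kidney genes Nphs1, Umod and Slc12a1 missed the filter.

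**Figure D5:**
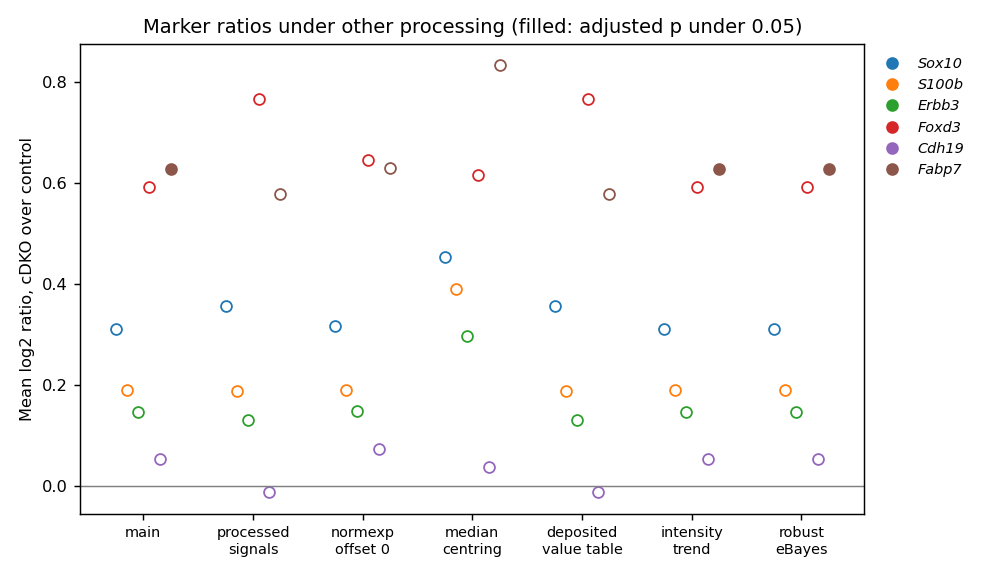
Mean log2 ratio of each glial marker under the setting of the text ("main") and 6 other settings, filled where the adjusted p was under 0.05. Fabp7 is the marker with filled points, in 3 of the 7 settings shown, and Cdh19 is the marker that crosses 0.

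Across the 10 other settings, 0 of the 5 markers that were not called became called. The lowest adjusted p that any of them reached was 0.0787, for Foxd3 with the filter on both channels. Means of Sox10 lay between 0.31 and 0.45, of S100b between 0.19 and 0.39, of Erbb3 between 0.13 and 0.30 and of Foxd3 between 0.59 and 0.77. Under median centring, without loess, the median of the 6 markers was 0.87 in the male pair and 0.10 in the female pair, and the median mean ratio of all genes was 0.066.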

How the data were processed

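Total RNA of ureters was measured on 2 two-colour arrays of 1 slide with 1 scan. Agilent Feature Extraction 10.7.3.1 gave the mean and the local background intensity of each spot, per the file headers. It also gave the deposited processed signals, after subtracting background and balancing the dyes, and a deposited log10 ratio of red over green. The values in the authors' table are a score of unstated scale, as deposited; set against the scanner values, they behaved as a signed fold change of cDKO over control, with a median of 1 on both arrays. The 0 or 1 spot flags were used as deposited.

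Background was corrected by normexp with an offset of 50, then loess was run on each array in limma 3.58.1 under R 4.3.3, where control and outlier spots had weight 0. Processed signals are printed as levels, and ratios come from the normexp and loess fit. Spots of a probe were averaged. A probe stayed if it was well above background in both cDKO RNAs or in both control RNAs, which left 29274 of 39429 probes and 23419 genes, each represented by its brightest kept probe. Symbols came from RefSeq (GRCm38.p6) by accession for 26412 probes and from the files for 13017. The mean of both log2 ratios (cDKO over control) was tested against 0 with lmFit and eBayes, two-sided, Benjamini-Hochberg over the kept probes, with 1 residual and 13.9 prior degrees of freedom. Called means an adjusted p under 0.05. The fit was tested on simulated data. The number of arrays limits the precision.

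The members and lists were chosen with earlier results of these data known. Named beside the 6 markers are, per list, called genes, up to 4 with the largest ratio of the same sign on both arrays, and the 2 brightest of the first 4 lists, with the 3 genes nearest to Sox10; a few further genes are not reported here. Other settings were the processed signals, offset 0, median centring, Aquantile, other filters, the deposited value table, an intensity trend, robust eBayes, the mean of a gene's probes and each array alone. Sequences are those of the deposited probes.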

Additional observations from a re-analysis of the deposited data

Results flagged for a closer look

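Some named genes had ratios of opposite sign in the male and the female pair of RNAs. The difference was not tested, since each sex had 1 array, and sex cannot be told apart from dye orientation. Male minus female log2 ratios of the glial markers were 0.64 for Sox10 (0.63 and -0.0090), 0.45 for S100b (0.42 and -0.034) and -0.63 for Cdh19 (-0.26 and 0.37). The female ratio of Sox10 was 0.017 with the processed signals, so its sign depends on the processing.

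In the nerve cell list the differences were 1.397 for Hand2, 1.37 for Th, 1.29 for Dbh and 1.04 for Phox2a. In the Schwann cell and neuregulin lists they were 0.63 for Ngfr, 0.18 for Ncam1, -0.13 for Mal, -0.70 for Adam10 and -0.15 for Errfi1. For Wnk4, Zfp459 and Acbd6, which were picked for being close to Sox10, they were 0.643, 0.6424 and 0.65. Opposite signs were found for 40.3% of all genes.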

How the results depend on the processing

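Fabp7 was the member called, and 0 members were called higher in the deposited value table, without a filter, with offset 0, from the processed signals and under median centring. The genes of the 5 lists of crest, myelin, neuregulin, neuron and melanocyte genes that were called higher numbered 5, against 1 under median centring, 1 from the processed signals and 0 in the deposited value table. Those called lower numbered 2, against 0, 0 and 0 there and 1 each with offset 0 and without a filter. Over all genes, 511 were called higher and 531 lower, against 163 and 157 under median centring, 107 and 198 from the processed signals, and 0 and 0 by limma in the deposited value table, where 2434 had an unadjusted p under 0.05. An intensity trend gave 936 higher, and 58.5% of its calls were higher, against 49% for the values in the text and 35.1% with the processed signals. The causes were not tested. Aquantile leaves ratios as they are. The mean of Cdh19 turned to -0.012 with the processed signals and in the deposited value table. Among genes not called, Ncam1 turned to 0.086 and Mal to 0.031 under median centring, as did Errfi1 to 0.11, Snap25 to 0.027, Mitf to 0.0069 and Th to 0.079. Ncam1 was at 0.0060 as the mean of its probes, and Mal at 0.045 with the processed signals and in the deposited value table. Of 22 called genes named beside the markers, 10 kept the call in every setting except the deposited value table. Of 37 genes not called and followed across the settings, Erbb4 and Krt5 gained a call in some setting. With 1 array left out, a ratio had no test, and the values of both arrays are those given above. The ratio of each array already pairs the genotypes, and the 2 arrays form 1 group, so no further pairing was possible.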
